A study of Mus musculus with 16 samples.

Results

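Complement component C4b was followed together with 6 other genes of the complement system, C3, C3ar1, Serping1, Cd59a, Cd55 and Masp1, in the prefrontal cortex (PFC) of mice with altered β-catenin (β-cat). The 7 genes were taken by name from a table of 23284 genes and read in all 16 libraries, 4 from each of 4 genotypes. Levels are in FPKM (fragments per kilobase of transcript, scaled to the mapped fragments of the library), which allows for transcript length. The mice were 2 to 3 months old and of both sexes. In APC cKO mice both Apc alleles were floxed (APC fl/fl), and in APC/β-cat cKO mice both Apc and both Ctnnb1 alleles were floxed (APC fl/fl and ctnnb1 fl/fl). In β-cat cOE mice 1 Ctnnb1 allele carried a floxed exon 3 (ctnnb1 fl(ex3)/+), whose loss yields a stabilized protein. All 3 lines carried the CamKIIα-Cre-93 transgene, which acts mainly in excitatory neurons of the forebrain, and the control littermates were Cre-negative mice pooled from all lines. APC/β-cat cKO mice with hydrocephaly had been excluded by the study. APC cKO and β-cat cOE are the lines with raised β-cat, and APC/β-cat cKO is the line designed to lower it.

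Complement is a cascade of plasma and tissue proteins that tags surfaces for removal. The classical pathway, started by C1q, and the lectin pathway, started by mannose-binding lectins with proteases such as Masp1, both cleave C4 and C2 to build the enzyme that cleaves C3. Fragments of C3 label targets for phagocytes and signal through C3ar1, whereas Serping1, Cd55 and Cd59a hold the cascade in check at its start, middle and end. In the brain, microglia make C1q, astrocytes and other glia make C4 and C3, and complement is known for its part in synapse pruning. The Cre of these lines is therefore directed to neurons, while most of the genes described here are known from glia. In dissected tissue, fewer cells of a type and less RNA per cell cannot be told apart.

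C4b has a near-identical neighbour, C4a (the gene of the sex-limited protein), so the sequence is shown first to let the C4b values be read with this in mind. On mm10, the table places C4b at chr17:34728380-34743897 and C4a at chr17:34809091-34823454. In GENCODE M21 transcripts of the same build, the main transcripts of C4b (5379 bases, 41 exons) and C4a (5357 bases, 42 exons) were identical at 5151 of 5357 aligned bases, or 96.15%. Of the 5280 windows of 100 bases in that of C4b, 871 (16.5%) also occurred unchanged in that of C4a, and the longest shared run was 433 bases. Fragments from such stretches cannot be told apart by sequence, and how they were divided is not given in the sources used here. The 60 bases of exon 21 below, at chr17:34735430-34735489 in C4b and chr17:34816086-34816145 in C4a on the minus strand, hold 13 of the differences, printed in capitals.
C4b: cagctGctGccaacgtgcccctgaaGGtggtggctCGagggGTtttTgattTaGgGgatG
C4a: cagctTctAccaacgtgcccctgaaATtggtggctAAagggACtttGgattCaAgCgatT
Measured over the whole gene, C4a had mean levels of 0.230 FPKM (controls), 0.350 FPKM (APC cKO), 0.314 FPKM (β-cat cOE) and 0.213 FPKM (APC/β-cat cKO), far under C4b in each genotype. Cd59a and Cd55 have near copies too, with less shared sequence. Cd59a shared 0.314% of its 100-base windows with Cd59b, and Cd55 shared 6.86% with Cd55b.

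The targeted genes were read first. Apc was at 40.8 to 50.1 FPKM in controls and 38.8 to 49.5 FPKM in β-cat cOEs, against 7.85 to 17.1 FPKM in APC cKOs and 6.80 to 12.2 FPKM in APC/β-cat cKOs. Ctnnb1 was at 155.5 to 166 FPKM in controls, 157 to 182 FPKM in APC cKOs, 155.3 to 166 FPKM in the β-cat cOE line and 151 to 157 FPKM in the APC/β-cat cKO line. Its log2 difference from controls in the last was -0.049 (limma adjusted p = 0.643), so the value over the whole gene did not show a lowering of Ctnnb1 in this line past the test. By immunoblot, the paper reports a strong loss of β-cat protein from the PFC of this line. RNA over the whole gene does not measure that protein. No fragment counts came with the values, which leaves library depth unknown, and 5726 to 6649 genes were listed at 0 per library. Differences between genotypes are on the log2(FPKM + 0.1) scale and were tested with limma over 13978 genes, those whose mean reached 0.5 FPKM. Of the 7 members, 5 passed this filter, and C3 and C3ar1 did not. A positive difference means a higher level in the first genotype named.

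In controls, the members ranked from Cd59a at 9.05 FPKM through Serping1 at 3.70, Masp1 at 3.28, Cd55 at 3.19 and C4b at 2.82 FPKM to C3ar1 at 0.419 and C3 at 0.0639 FPKM. The ranges of Serping1 and Masp1, Masp1 and Cd55, and Cd55 and C4b overlapped, so these neighbours in the order did not differ beyond their spread. Cd59a lay above all of them in every control library, and C3ar1 and C3 lay below. In APC cKOs C4b was second, at 5.70 FPKM, with a range that overlapped that of Serping1, next at 5.27 FPKM.

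The fitted level of C4b in APC cKOs was about 1.8-fold that in controls, and 2 of the 4 APC cKO libraries carried most of the difference. Its level was 2.85, 2.97, 2.76 and 2.69 FPKM in the 4 control libraries, and 9.21, 3.27, 6.77 and 3.54 FPKM in APC cKO replicates 1 to 4. All 4 APC cKO libraries lay above all 4 controls. In β-cat cOEs, C4b was at 5.14, 4.39, 2.29 and 4.15 FPKM, with 3 libraries above every control and replicate 3 below every control. In APC/β-cat cKOs it was at 2.74, 4.59, 3.38 and 2.72 FPKM, with 2 libraries above the controls and 2 within their range.

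**Figure D1:**
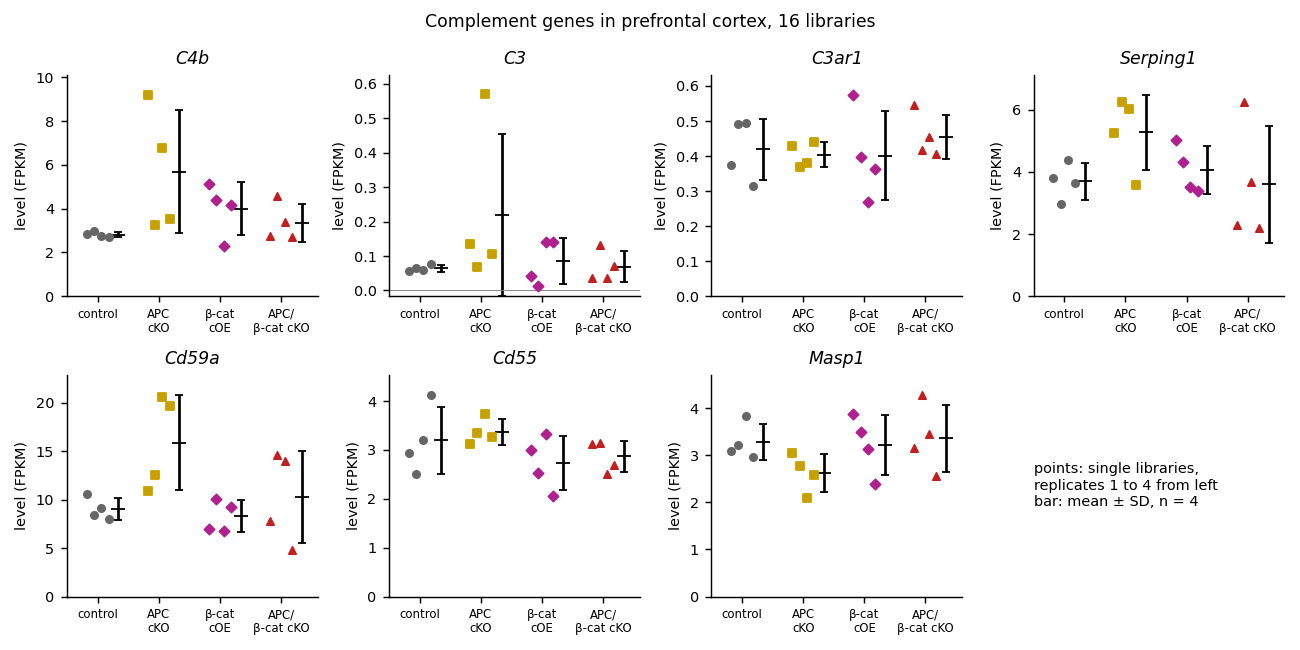
Level of each of the 7 complement genes in FPKM (vertical axis, linear; scales differ between panels) in the 16 PFC libraries, by genotype. Points are single libraries, bars are the mean ± SD (n = 4). C4b lies between 2.69 and 2.97 FPKM in controls and between 3.27 and 9.21 FPKM in APC cKOs, and Cd59a shows the other separation of these groups; the bar of C3 in APC cKOs reaches below 0 because 1 library is at 0.570 FPKM.

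The spread of C4b also differed between genotypes. Controls were at 2.82 ± 0.120 FPKM, APC cKOs at 5.70 ± 2.83, β-cat cOEs at 3.99 ± 1.21 and APC/β-cat cKOs at 3.36 ± 0.878 FPKM (SD, n = 4 each). The coefficient of variation was 4.25% among the controls and 49.7%, 30.3% and 26.1% among the 3 lines in the same order. No test of the spreads was made.

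Against controls, the log2 difference of C4b was 0.86 in APC cKOs (standard error 0.30, 95% interval 0.23 to 1.49). With limma and Benjamini-Hochberg adjustment over all 13978 genes it did not pass the threshold of 0.05 (adjusted p = 0.358). In β-cat cOEs the difference was 0.43 (interval -0.20 to 1.06, limma adjusted p = 0.950). For APC/β-cat cKOs it was 0.21 (interval -0.41 to 0.84, limma adjusted p = 0.769). These intervals rest on 1 spread shared by the 4 genotypes. The SD of C4b on the log2(FPKM + 0.1) scale was 0.059 in controls and 0.71 in APC cKOs. The interval for that pair therefore does not reflect their own spreads. Of all tested genes, 0.0429% were called in APC cKOs, 0.0143% for the β-cat cOE line and 0.207% for the APC/β-cat cKO line. Of the 5 tested members, 0 were called in any of the 3. At an unadjusted p under 0.05, 2 members were past the threshold in APC cKOs (C4b and Cd59a), where 10% of all genes were. None were in β-cat cOEs, where 5.07% of all genes were, or in APC/β-cat cKOs, where 14.2% were.

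Comparing the lines with each other addresses whether C4b follows raised β-cat. APC cKOs and APC/β-cat cKOs carry the same Apc deletion and differ in Ctnnb1, and between them the log2 difference of C4b was 0.65 (interval 0.019 to 1.27, limma adjusted p = 0.475). From the APC/β-cat cKO line the β-cat cOE differed by 0.22 (limma adjusted p = 0.796), and from the β-cat cOE the APC cKO differed by 0.43 (interval -0.20 to 1.06, adjusted p = 0.821). The interval for the β-cat cOE against the APC/β-cat cKO line was -0.41 to 0.85. Since this and the interval between the lines with raised β-cat include 0 and large differences alike, similar action of these lines on C4b is not shown. The shares of all genes called were 0.215%, 0.229% and 0.0429% in these 3 comparisons, with 0 of the 5 members called in each.

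Averaged over the 2 lines with raised β-cat and set against the other 2 groups, C4b differed by 0.54 (standard error 0.21, interval 0.10 to 0.98, limma adjusted p = 0.474). In this comparison 0.0572% of genes were called and 0 of the 5 members. The study had itself picked C4b from these libraries, so these p-values are not independent evidence. In exact two-sided permutation tests of C4b alone, the smallest p that 4 against 4 allows is 0.0286, and APC cKOs against controls reached it (p = 0.172 after adjustment over the 6 pairs of genotypes). The exact p was 0.143 where β-cat cOEs were set against controls and 0.343 where APC/β-cat cKOs were. Set against the APC/β-cat cKO line, the exact p was 0.20 for the APC cKO and 0.514 for the β-cat cOE, and between these last 2 lines it was 0.371.

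Without APC cKO replicate 1 the difference of C4b from control was 0.59, and without replicate 2 it was 1.08 (limma adjusted p = 0.162, the lowest of 30 alternatives). Leaving out both libraries with the highest C4b, APC cKO replicates 1 and 3, gave 0.26, an alternative chosen after the values were seen. By their sex-linked genes, control replicate 1 and APC cKO replicate 1 were female and the other 14 libraries male. The female control was within the range of the male controls for C4b, and the female APC cKO had the highest C4b of all libraries (9.21 FPKM). With 1 female in each of these groups, a difference by sex cannot be told apart from one between mice. Since both groups held 1 female, sex as a covariate could not move the difference between APC cKOs and controls. It moved that of β-cat cOEs from 0.43 to 0.57 and that of APC/β-cat cKOs from 0.21 to 0.35. The difference of APC cKOs from the β-cat cOE line moved from 0.43 to 0.29. Their difference from the APC/β-cat cKO line moved from 0.65 to 0.51.

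**Figure D2:**
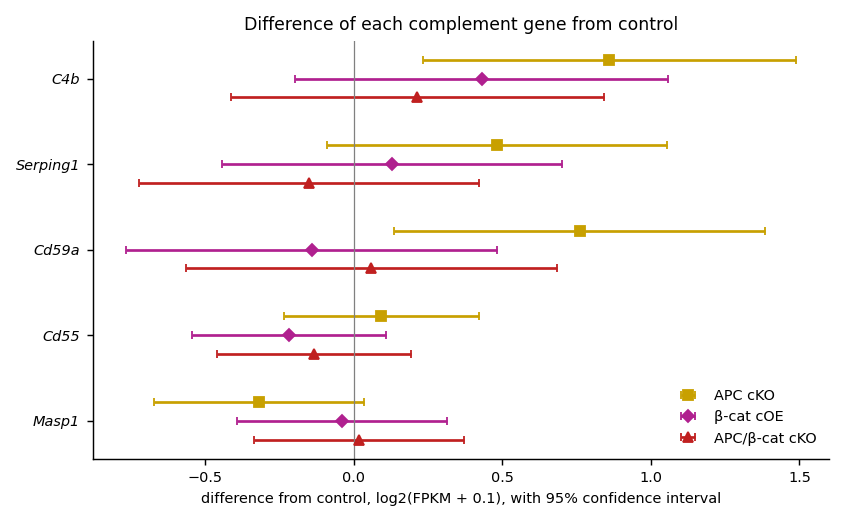
Difference of each tested complement gene from control in the 3 lines, on the log2(FPKM + 0.1) scale (horizontal axis), with 95% confidence intervals from limma (4 libraries per genotype). The intervals of C4b (0.23 to 1.49) and Cd59a (0.14 to 1.39) in APC cKOs lie above 0, and all others shown include it. All intervals rest on 1 spread per gene, shared by the 4 genotypes. No difference passed after adjustment over all genes.

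C3, the protein that C4b-bearing enzymes cleave, was under the filter and was not tested. Controls were at 0.0557, 0.0646, 0.0586 and 0.0768 FPKM, and APC cKOs at 0.135, 0.0679, 0.570 and 0.106 FPKM. Replicate 3 of the APC cKOs stood far above every other library, and was also among the 2 with the highest C4b. β-cat cOEs were at 0.0425, 0.0130, 0.141 and 0.142 FPKM, and APC/β-cat cKOs at 0.0358, 0.133, 0.0358 and 0.0721 FPKM, both ranges overlapping the controls. The difference from control in APC cKOs was 0.73 on the log2(FPKM + 0.1) scale, and 0.30 without replicate 3. Most values of C3 lie under this pseudocount, which sets the size of the difference: it was 0.18 with a pseudocount of 1 and 1.18 with 0.01.

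Masp1, a serine protease of the lectin pathway, was the 1 tested member with a lower mean in APC cKOs than in controls. It was at 3.10, 3.23, 3.83 and 2.98 FPKM in controls and at 3.04, 2.77, 2.08 and 2.59 FPKM in APC cKOs. The ranges met at 1 library each, and the difference was -0.32 (interval -0.67 to 0.034, limma adjusted p = 0.540). The level of Masp1 was 3.87, 3.50, 3.13 and 2.39 FPKM in β-cat cOEs, and the APC/β-cat cKOs were at 3.16, 4.28, 3.45 and 2.56 FPKM. Both ranges held the whole range of the controls, with differences of -0.041 and 0.017 (limma adjusted p = 0.982 and 0.978).

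The receptor gene C3ar1, which in brain is read mainly from microglia, had a level under the filter and was not tested. It was at 0.376, 0.491, 0.494 and 0.316 FPKM in controls, and at 0.429, 0.368, 0.380 and 0.441 FPKM in APC cKOs. It was at 0.575, 0.398, 0.270 and 0.363 FPKM in β-cat cOEs, and the APC/β-cat cKOs were at 0.545, 0.418, 0.453 and 0.405 FPKM. The ranges of all 4 genotypes overlapped, and the means lay between 0.401 and 0.455 FPKM.

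Of the 3 inhibitors, Cd59a showed a separation like that of C4b. Cd59a encodes a membrane-anchored protein that blocks assembly of the membrane attack complex. It was at 10.6, 8.42, 9.17 and 8.01 FPKM in controls and at 10.9, 12.5, 20.6 and 19.6 FPKM in APC cKOs. All 4 APC cKO libraries lay above all 4 controls, replicate 1 by the smallest margin. Across all tested genes, 2.49% showed this order of the groups, against 2 of the 5 tested members (C4b and Cd59a). In all 18 other tested complement genes these groups overlapped. The study had picked C4b from these libraries, and the members were chosen with earlier results known. The count of members is therefore not independent evidence. The fitted difference of Cd59a was 0.76 (standard error 0.29, interval 0.14 to 1.39, limma adjusted p = 0.412), about 1.7-fold.

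The pair of libraries highest in Cd59a shared 1 library with the pair highest in C4b. Cd59a was highest in APC cKO replicates 3 and 4, and C4b in replicates 1 and 3. Without APC cKO replicates 1 and 3 the difference of Cd59a from control was 0.80, in place of 0.76. In β-cat cOEs Cd59a was at 6.95, 10.1, 6.80 and 9.23 FPKM, below every APC cKO library. APC cKOs exceeded β-cat cOEs by 0.90 (interval 0.28 to 1.53, limma adjusted p = 0.457), and 2.58% of all tested genes were ordered in the same way without overlap. APC/β-cat cKOs ranged most widely, at 7.79, 14.6, 13.9 and 4.84 FPKM. Their mean differed from that of controls by 0.058, and from that of APC cKOs by 0.70 (limma adjusted p = 0.952 and 0.443).

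Serping1, the gene of the C1 inhibitor that blocks the proteases at the start of the cascade, was at 3.81, 2.95, 4.39 and 3.64 FPKM in controls. It was at 5.27, 6.24, 6.02 and 3.57 FPKM in APC cKOs, with replicates 1 to 3 above every control and replicate 4 within their range. The difference was 0.48 (interval -0.09 to 1.05, limma adjusted p = 0.566). β-cat cOEs were at 5.04, 4.33, 3.51 and 3.38 FPKM. APC/β-cat cKOs held both the lowest values of any library, 2.28 and 2.21 FPKM, and a value among the highest, 6.24 FPKM in replicate 2, with 3.68 FPKM in replicate 3. APC cKOs differed from APC/β-cat cKOs by 0.63 (limma adjusted p = 0.449).

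Cd55, whose product speeds the decay of the enzyme that cleaves C3, had overlapping ranges in all 4 genotypes. It was at 2.93, 2.52, 3.21 and 4.12 FPKM in controls and 3.12, 3.35, 3.74 and 3.26 FPKM in APC cKOs. It was at 3.004, 2.54, 3.32 and 2.06 FPKM in β-cat cOEs, and the APC/β-cat cKOs were at 3.13, 3.15, 2.52 and 2.69 FPKM. The differences from control were 0.09, -0.22 and -0.13 (limma adjusted p = 0.869, 0.950 and 0.713). In a test for any difference among the 4 genotypes, which called 0.25% of all genes, the adjusted p was 0.432 for C4b, 0.380 for Cd59a, 0.537 for Serping1, 0.564 for Masp1 and 0.593 for Cd55.

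The other genes of the system were counted from a list of 54 complement genes, 52 of which were found in the table. Besides the members, 18 of these passed the filter. Of the 23 tested genes of the whole list, 12 had a higher and 11 a lower mean in APC cKOs than in controls, with a median difference of 0.0067, beside -0.0042 over all genes. The median was 0.0074 for the β-cat cOE line and -0.083 for the APC/β-cat cKO line, beside -0.0036 and 0.0031 over all genes. None of the 23 passed after adjustment, and 3, 0 and 3 had an unadjusted p under 0.05 in the 3 lines, beside 10%, 5.07% and 14.2% of all genes.

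Those beyond the members were C1qb, C1qc and Clu. C1qb and C1qc, 2 of the chains of C1q, were higher in APC/β-cat cKOs than in controls by 0.37 and 0.39 (limma adjusted p = 0.324 and 0.328). Controls had 28.2 ± 7.59 FPKM of C1qb, APC cKOs 27.6 ± 1.08, β-cat cOEs 34.1 ± 5.24 and APC/β-cat cKOs 35.8 ± 5.75 FPKM (SD, n = 4). C1qa, the other chain, had a difference of 0.014 in the same comparison. None of the 3 chains of C1q had its highest mean in APC cKOs, the line with the highest mean C4b. Clu, or clusterin, an inhibitor of the terminal complex that astrocytes make in large amounts, was at 374 FPKM in controls and 417 FPKM in both APC cKOs and APC/β-cat cKOs on average. Its differences were 0.16 and 0.15 (limma adjusted p = 0.428 and 0.310).

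**Figure D3:**
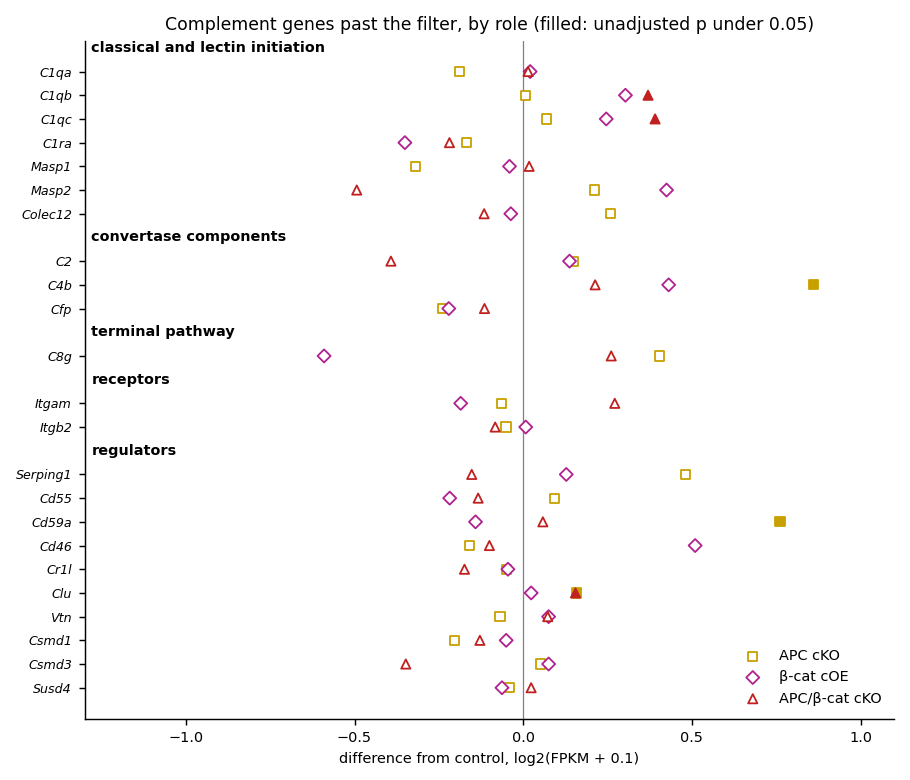
Difference from control of the 23 complement genes that passed the filter, on the log2(FPKM + 0.1) scale (horizontal axis), grouped by role and given for each line. Filled symbols mark an unadjusted p under 0.05; C4b and Cd59a in APC cKOs lie farthest to the right, and the filled symbols of C1qb and C1qc belong to APC/β-cat cKOs.

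The remaining 29 genes of the list found in the table were under the filter, with Cfd, C9 and Daf2 (Cd55b) at 0 in all 16 libraries. They included most of the terminal components and of the lectins. C8g, a chain of the terminal complex, was the 1 tested gene of that group, and its differences of 0.40, -0.59 and 0.26 in the 3 lines did not pass the test (limma adjusted p above the threshold of 0.05 in each).

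Between the members, Pearson's r of log2(FPKM + 0.1) was computed for the 10 pairs of the 5 tested members over the 16 libraries, which share genotypes. C4b and Serping1 had r = 0.616 and Spearman's rho = 0.615 (permutation p = 0.0108 and 0.0128, adjusted over the 10 pairs 0.0792 and 0.0501). Without the 2 libraries farthest in C4b r was 0.543, and for deviations from the genotype means it was 0.484. C4b and Cd59a had r = 0.446 and rho = 0.621 (permutation p = 0.0843 and 0.0119, adjusted 0.281 and 0.0501), with r = 0.351 without the same 2 libraries and r = 0.214 for deviations from the genotype means. Serping1 and Cd59a had r = 0.587 and rho = 0.60 (permutation p = 0.0158 and 0.015, adjusted 0.0792 and 0.0501), with r = 0.44 without the 2 libraries farthest in Serping1. For deviations from the genotype means Serping1 and Masp1 had r = 0.629, the highest of the 10 pairs, against 0.171 over the libraries as they are. No pair passed after adjustment, and C4b with Cd55 and with Masp1 had r of 0.00658 and -0.112.

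The genes whose pattern over the 16 libraries was most like that of C4b were Dchs1, Plxnb2, Zcchc14, Gfap, A230065H16Rik, Bmp6, Cntnap3, Notum, Prokr2 and Vim, with r from 0.919 down to 0.878. The median r with C4b over the other 13977 tested genes was -0.0189, and the 95th percentile 0.596. Gfap and Vim encode intermediate filaments of astrocytes, both known to be abundant in reactive astrocytes. Dchs1 encodes a large cadherin, Plxnb2 a semaphorin receptor, Bmp6 a growth factor and Notum a secreted inhibitor of Wnt ligands. For deviations from genotype means, r was 0.868 for Dchs1, 0.834 for Gfap and 0.845 for Vim. On that measure the 10 genes ranked from 11 (Plxnb2, r = 0.874) to 55 (Notum, r = 0.824) of the 13977. Thus 0 of them were among the 10 highest. Without the 2 libraries farthest in C4b, APC cKO replicates 1 and 3, r ran from 0.662 (Notum) to 0.858 (Plxnb2). These 2 libraries thus carry part of the match.

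Gfap was at 45.9, 46.3, 48.3 and 48.6 FPKM in controls and at 131.6, 61.4, 69.0 and 68.5 FPKM in APC cKOs. It was at 69.0, 65.3, 44.7 and 55.1 FPKM in β-cat cOEs and at 45.5, 93.7, 55.5 and 46.9 FPKM in APC/β-cat cKOs. The libraries with low C4b outside the controls, β-cat cOE replicate 3 and APC/β-cat cKO replicates 1 and 4, were also those with the lowest Gfap. APC/β-cat cKO replicate 2, with the highest C4b of its genotype, had the highest Gfap of it. Gfap is shown for its high r with C4b over these same libraries, so this match follows from that choice and is not further evidence.

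**Figure D4:**
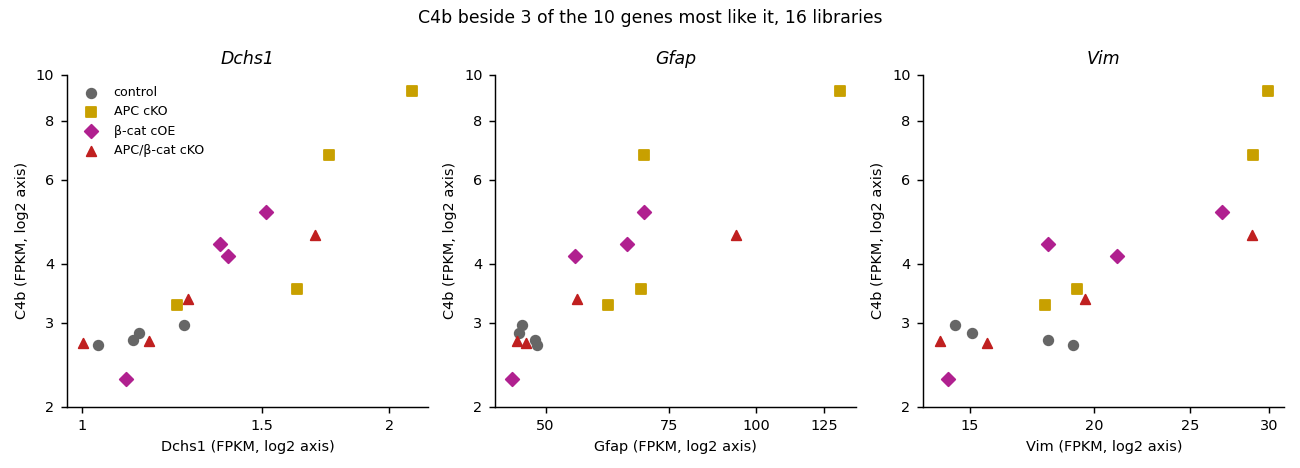
C4b (vertical axis) against Dchs1, Gfap and Vim (horizontal axes), in FPKM on log2 axes, with 1 point per library and 16 libraries in each panel. APC cKO replicate 1, at 9.21 FPKM of C4b and 131.6 FPKM of Gfap, is at the upper right, and the controls lie together at the lower left; r was 0.919, 0.887 and 0.878.

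Markers of several cell types were summed in each library to set beside C4b. The 10 reactive astrocyte and acute phase genes, which include Gfap and Vim and were all found, summed to 74.3 to 84.6 FPKM in controls. They summed to 94.3 to 180 FPKM in APC cKOs, 73.2 to 117 FPKM in β-cat cOEs and 75.5 to 147 FPKM in APC/β-cat cKOs, with r = 0.914 with C4b over the 16 libraries. Of the 10, 7 passed the filter over the 16 libraries. In APC cKOs against controls, 2 of these had an unadjusted p under 0.05, beside 10% of all genes. After adjustment 0 did, beside 0.0429% of all genes. Gfap and Vim made up 77.3% to 81.7% of the sum in controls, and without them the other 8 genes had r = 0.519. Serpina3n, an acute phase gene of this list, had means of 12.01 FPKM in controls and 11.8 FPKM in APC cKOs, with r = 0.476 with C4b, and r = 0.739 for deviations from genotype means. The 10 general astrocyte genes summed to 738 to 850 FPKM in controls and 727 to 785 FPKM in APC cKOs, with r = 0.0588. The 10 microglia genes summed to 193 to 203 FPKM in controls, 184 to 206 FPKM in APC cKOs, 204 to 224 FPKM in β-cat cOEs and 209 to 229 FPKM in APC/β-cat cKOs, with r = 0.15.

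Markers of tissue next to the PFC also varied between libraries. The 7 ependymal genes found of 8 summed to 9.34 to 12.3 FPKM in controls, and to 28.4, 8.16, 48.2 and 17.8 FPKM in APC cKO replicates 1 to 4. They were at 33.7 FPKM in β-cat cOE replicate 4 and at 29.1 FPKM in APC/β-cat cKO replicate 2. Their r with C4b was 0.729. APC cKO replicate 2 was the lowest of its genotype in both. Its ependymal markers were below every control, and its C4b, at 3.27 FPKM, was above every control. With the ependymal level as a covariate, chosen after the values were seen, the difference of C4b between APC cKOs and controls was 0.49 (limma adjusted p = 0.9998), and that of Cd59a was 0.57. The 10 excitatory neuron markers summed to 2039 to 2230 FPKM in controls and to 1746, 2195, 1803 and 2062 FPKM in APC cKO replicates 1 to 4, with r = -0.911 with C4b. The 2 libraries with the most C4b were thus those with the least of these markers. The 10 endothelial markers had r = -0.723, with 78.1 to 99.7 FPKM in APC cKOs and 99.5 to 113 FPKM in controls. No marker of these lists was at 0 in all libraries. Of the lists, only the ependymal one was used as a covariate. Its median sum was 10.3 FPKM in controls and 23.1 FPKM in APC cKOs, so that fit cannot separate its level from genotype. The part of these markers in the differences of C4b was not tested.

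**Figure D5:**
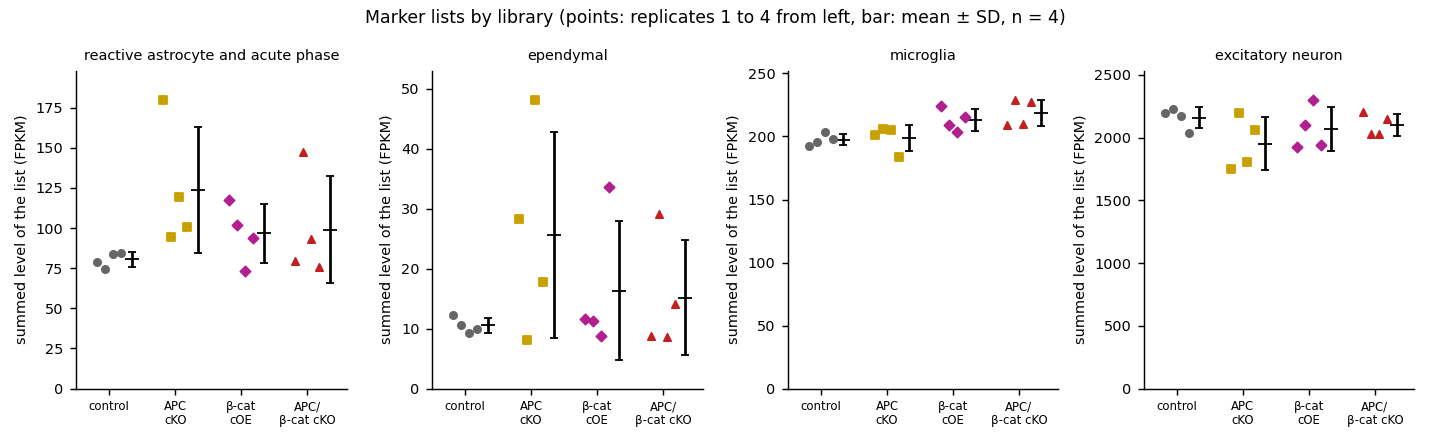
Summed level in FPKM (vertical axes, from 0) of marker genes for reactive astrocytes and the acute phase, ependyma, microglia and excitatory neurons in the 16 libraries, with the mean ± SD (n = 4). The reactive list spans 94.3 to 180 FPKM in APC cKOs and 74.3 to 84.6 FPKM in controls, and the microglia list overlaps between these groups.

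The other lists had r with C4b between -0.329 for choroid plexus and 0.377 for meningeal and perivascular fibroblasts, including oligodendrocyte (-0.306), blood (0.312), immediate early (0.146) and interferon with MHC class I genes (0.26). Of the 10 oligodendrocyte genes, 6 were lower and, of the 10 immediate early genes, 7 were higher in APC cKOs than in controls at an unadjusted p under 0.05, and none after adjustment. Of all genes, 5.19% were lower and 4.82% higher by this rule. Markers of striatal projection neurons, which lie beneath the cortex, summed to 141 to 556 FPKM in controls and 171 to 761 FPKM in APC cKOs, with r = 0.0867 with C4b.

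The genes beside C4b were looked at because C4b lies in the dense class III region of the major histocompatibility complex. Within 150 kb of it, 20 genes were listed and 15 tested. None passed after adjustment in any of the 3 lines against controls, and 2, 1 and 2 had an unadjusted p under 0.05 in APC cKOs, β-cat cOEs and APC/β-cat cKOs, beside 10%, 5.07% and 14.2% of all genes. In APC cKOs their differences ran from -0.61 to 0.20, all below the 0.86 of C4b.

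β-cat acts on genes through TCF/LEF factors, so promoters were searched for the letters CTTTG followed by 2 bases that are each A or T, on both strands. RefSeq promoter windows of 300 bases (GRCm38.p6) were at hand for 4 of the 7 members, C3, C3ar1, Cd59a and Cd55. None of the 4 held this run of letters, which 16.9% of 32851 promoters held. No window was at hand for C4b, Serping1 or Masp1. With 4 promoters and that share, the search cannot show whether TCF/LEF factors act on these genes.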

How the data were processed

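RNA of freshly dissected PFC from 4 mice per genotype was sequenced by the authors as polyA-selected, stranded, paired-end libraries (Illumina TruSeq). The authors mapped the reads to mm10 with TopHat2 2.0.10 and computed expression with Cufflinks and Cuffdiff 2.1.1. The deposited values are on a log scale, read here as log2(FPKM + 1), and were turned back into FPKM. The base is not stated and was inferred: FPKM times the length of each gene's longest transcript, in kilobases, sums to 1254522 to 1330678 per library for log2, and to 11022536 to 12132974 for natural logs. The scaling of FPKM puts this sum near a fixed total, which the longest transcripts overstate, and log2 lies much closer to it. The offset of 1 is an assumption, under which genes listed at 0 have 0 FPKM. All 16 value columns were used, and 0 were left out. Samples were grouped by their labels, and replicates were numbered in the order of the samples.

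Genes whose mean was 0.5 FPKM or more were tested on log2(FPKM + 0.1), which understates changes of low genes, with limma 3.58.1 in R 4.3.3 (lmFit, contrasts.fit, eBayes with trend) in one model of the 4 genotypes (12 residual degrees of freedom). Benjamini-Hochberg adjustment ran over all 13978 genes, with a threshold of 0.05. The design had assumed FPKM. C4b was also compared with exact permutation tests, and member pairs with 100000 permutations. On simulated data for APC cKO against control (13978 genes) the test called 98% of 100 genes given a log2 change of 2 and 92% of 100 given 1, with 7 false calls. Each simulated gene had 1 spread in all genotypes, unlike C4b (SD of log2(FPKM + 0.1) 0.059 in controls and 0.71 in APC cKOs). These shares therefore do not give the chance of calling a change in C4b.

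The members and gene lists were chosen with earlier results of these data known. Genes named are the members, other complement genes with an unadjusted p under 0.05 in a line against control, and the 10 genes most correlated with C4b. C1qa, C8g, Serpina3n, C4a and the genes at 0 were named after their values were seen. A gene of the complement list is not reported here, and the counts of that list are without it. Sequences came from GENCODE M21 and RefSeq. Alternatives were other pseudocounts, filters, scalings, covariates, blocks, smaller fits, a threshold of 0.01 and each library left out. Replicates are separate mice, and the p-values cover the spread between them. Python 3.11.15, numpy 2.4.6, pandas 2.3.3, scipy 1.17.1, biopython 1.88 and matplotlib 3.10.9 were used.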

Additional observations from a re-analysis of the deposited data

Results flagged for a closer look

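C3 was at 0.570 FPKM in APC cKO replicate 3, while the other APC cKO libraries were at 0.0679 to 0.135 FPKM. This library stood far from the others of its genotype: its gap to the nearest of them was 0.867 of the whole range, above Dixon's critical value for 4 samples. The 7 members in 4 genotypes made 28 groups, of which 1 was past the critical value, and chance gives about 1.4.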

How the results depend on the processing

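Under every alternative run, 0 of the 5 tested members passed after adjustment in any of the comparisons, as in the reported fit. Of 210 alternative values of C4b over 7 comparisons, 99 equal the reported value, since many settings cannot move a difference of means, and of the other 111 the direction stayed in 110. The exception was APC cKO against β-cat cOE, at -0.17 when APC cKO libraries 1 and 3, the highest in C4b, were left out (chosen after seeing the data). The reported 0.43 thus rests on these libraries, and with single libraries left out it ran from 0.16 to 0.65. Likewise C4b in APC cKOs against controls ran from 0.59 without APC cKO replicate 1 to 1.08 without replicate 2, and was 0.26 without replicates 1 and 3 together and 0.49 with the ependymal covariate. Against APC/β-cat cKOs it ran from 0.38 to 0.86, and was 0.052 without both. For C4b in β-cat cOEs against controls single omissions gave 0.29 to 0.67, in APC/β-cat cKOs 0.055 to 0.30, between β-cat cOEs and APC/β-cat cKOs 0.080 to 0.46, and in the raised lines against the others 0.40 to 0.66.

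Small differences of other members turned direction. Cd59a in APC/β-cat cKOs was -0.0052 with the ependymal covariate and -0.15 to 0.37 with single libraries left out. Single omissions also turned Masp1 in APC/β-cat cKOs (-0.10 to 0.14) and β-cat cOEs (-0.13 to 0.090), Cd55 in APC cKOs (-0.011 to 0.22) and Serping1 in APC/β-cat cKOs (-0.45 to 0.031). The untested C3 turned too (β-cat cOE line -0.060 to 0.31, APC/β-cat cKO line -0.16 to 0.10), as did C3ar1 (-0.13 to 0.042 in APC cKOs and -0.22 to 0.067 in β-cat cOEs). C3ar1 in APC cKOs moved from -0.028 to -0.18 with quantile normalization. The cause was not tested.

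Same-numbered samples did not in general deviate together (21 pairs, median r -0.069, r from -0.218 to 0.322). This cannot show whether the numbers mark mice that were related or handled together. The titles of APC cKO replicates 1 to 4 carry the numbers 1, 2, 4 and 5, and 5 occurs in no other genotype. As a block, the title number therefore takes APC cKO replicate 4 out of the comparison. C4b in APC cKOs was then 0.96 against controls (limma adjusted p = 0.771), beside 1.04 where replicate 4 was left out. With the block of the file's header number it was 0.86 (limma adjusted p = 0.411). The block gave 0 called members in each comparison.

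Depth is unknown, so the counting error of the low values of C3 and C3ar1 cannot be given.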
